A study of Mus musculus with 18 samples.

Results

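Hepcidin and the genes that sense, carry, export and store iron were followed in the liver of mice deprived of vitamin B2. The 9 genes were chosen by name (Hamp, Bmp6, Hfe, Tfr2, Tfrc, Trf, Slc40a1, Fth1 and Ftl1), and all 9 were found among the 54532 genes that each table lists. All 18 libraries were RNA-seq of whole liver from fasted male C57BL/6J mice, wild type in genotype and 1 library per mouse, and diets began at 4 wk of age. Without drug, 5 mice ate the isocaloric control diet (Ctrl) and 5 a vitamin B2-deficient diet (B2D) for 1 month. In the second experiment, 4 mice ate the control diet (Ctrl_FF) and 4 the deficient diet (B2D_FF) for 9 wk. Both groups of that experiment received fenofibrate, an agonist of the nuclear receptor PPARα, during weeks 7 to 9, with the last dose 2 hr before harvest. Because drug, time on diet and table all change between the experiments, their contributions cannot be told apart.

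Iron leaves cells through ferroportin, the product of Slc40a1, and hepcidin, the liver hormone encoded by Hamp, makes ferroportin disappear from the cell surface. Hepatocytes set hepcidin by BMP signals that come largely from sinusoidal endothelial cells (BMP6 among them), by sensors of transferrin-bound iron (HFE and transferrin receptor 2), and by inflammatory cytokines through STAT3. Inside the cell, iron regulatory proteins bind stem-loops in mRNAs called iron-responsive elements (IREs): bound near the 5′ end they hold back translation, and bound in the 3′ untranslated region of Tfrc they protect the mRNA. Vitamin B2 supplies the flavin cofactors of many oxidoreductases and has long been tied to iron handling in nutrition research.

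Matches to an IRE pattern are shown for the 9 mRNAs because these proteins bind such elements. Binding was not measured, and an mRNA without a match to this strict pattern could still be bound. A pattern of a 6-base loop (CAGTGN, N not G) closed by 5 base pairs, a C bulge and at least 4 pairs in the next 5 was searched on the sense strand of GENCODE vM21 transcripts (GRCm38). It was found in 35 of 58797 protein-coding transcripts, 0.0595% of them, and in 4 of the 9 genes. The loop is in capitals in the lines that follow, each 30 bases long and read 5′ to 3′.
Fth1 (5′ untranslated region, chr19:9982732-9982761, plus strand): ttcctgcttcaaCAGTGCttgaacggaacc
Ftl1 (5′ untranslated region, chr7:45459778-45459807, minus strand): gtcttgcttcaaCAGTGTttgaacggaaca
Slc40a1 (5′ untranslated region, chr1:45925464-45925493, minus strand): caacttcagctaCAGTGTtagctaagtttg
Tfrc site 1 (3′ untranslated region, chr16:32631219-32631248, plus strand): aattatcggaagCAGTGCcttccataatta
Tfrc site 2 (3′ untranslated region, chr16:32631598-32631627, plus strand): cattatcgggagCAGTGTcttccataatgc
Tfrc site 3 (3′ untranslated region, chr16:32631663-32631692, plus strand): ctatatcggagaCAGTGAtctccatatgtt
Tfrc site 4 (3′ untranslated region, chr16:32631710-32631739, plus strand): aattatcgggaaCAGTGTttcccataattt
Tfrc was the only protein-coding gene with a transcript holding 4 or more matches to this pattern. Both ferritin mRNAs and Slc40a1 carried 1 match each in the 5′ untranslated region, where the known effect is on translation, which RNA-seq does not measure.

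The promoter of Hamp is shown beside that of Hamp2, its neighbour and paralog, because Hamp2 passed the threshold in B2D against Ctrl and Hamp did not. Hamp2 was not tested against Hamp, and the part of these sequences in their levels was not tested. RefSeq promoters (GRCm38.p6, 250 bases before to 50 after the start site) were matched for 7 of the 9 genes and for Hamp2. Trf and Slc40a1 were not matched. Capitals mark GGCGCC, the core of the BMP-responsive element, or the 6 bases aligned to it, and TTCNNNGAA, the letters of a STAT site.
Hamp (chr7:30944094-30944153, minus strand): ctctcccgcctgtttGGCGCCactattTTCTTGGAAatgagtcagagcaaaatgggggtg
Hamp2 (chr7:30924243-30924302, minus strand): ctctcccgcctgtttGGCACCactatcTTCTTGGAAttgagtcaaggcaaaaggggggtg
The 60 aligned bases differed at 6 positions. Counted from 1 at the first base of the element, with the Hamp base first, G4A was the change inside the element, so Hamp2 lacked GGCGCC in this window and kept the STAT letters. Both motifs read the same on either strand. GGCGCC was in 11.9% and TTCNNNGAA in 8.30% of 32851 promoters of the same length. Among the matched genes, GGCGCC was also in 1 of the Tfrc promoters and TTCNNNGAA was in no other. The promoters of Hamp and Hamp2 were identical at 92.9% of 297 aligned bases and their transcripts at 94.6% of 410, so reads could be shared between them and the level of Hamp2 in particular is uncertain.

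Levels are given as FPKM, reads scaled by gene length and library size, which allows genes to be ordered as far as the listed gene lengths hold. Libraries held 15320729 to 21898502 reads on genes. The library size divided out was not this count. It was 17069373 in B2D replicate 2, which held 15320729 reads, and 20495388 in B2D_FF replicate 4, which held 21898502. The 8 hepatocyte markers (Alb, Ttr and others) summed to 37161 to 47623 FPKM in Ctrl and 37401 to 52317 in B2D. With fenofibrate the sum was 26684 to 30816 in Ctrl_FF and 23092 to 28254 in B2D_FF, so this sum overlapped between diets in both experiments. Single markers did not all overlap. Serpina1c was lower in every library of the deficient diet in both experiments. With fenofibrate Alb and Ttr were lower and Tat higher in every B2D_FF library, and the other markers overlapped. Hamp was the most abundant of the 9 genes in Ctrl and B2D, followed by Fth1, Ftl1, Tfr2, Trf, Slc40a1, Hfe, Tfrc and Bmp6. Neighbours in that order overlapped between Hamp and Fth1, Tfr2 and Trf, and Slc40a1 and Hfe, and were separate elsewhere. With fenofibrate, Fth1 came first in both groups and did not overlap the next gene. Hamp was then second in Ctrl_FF and the third in B2D_FF, overlapping Ftl1 in both. In Ctrl the spread between mice was widest for Bmp6, Tfrc and Hamp. The SD was 34.5% of the mean for Hamp and 3.47% for Ftl1 in Ctrl, and 1.14% for Fth1 in Ctrl_FF.

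**Figure D1:**
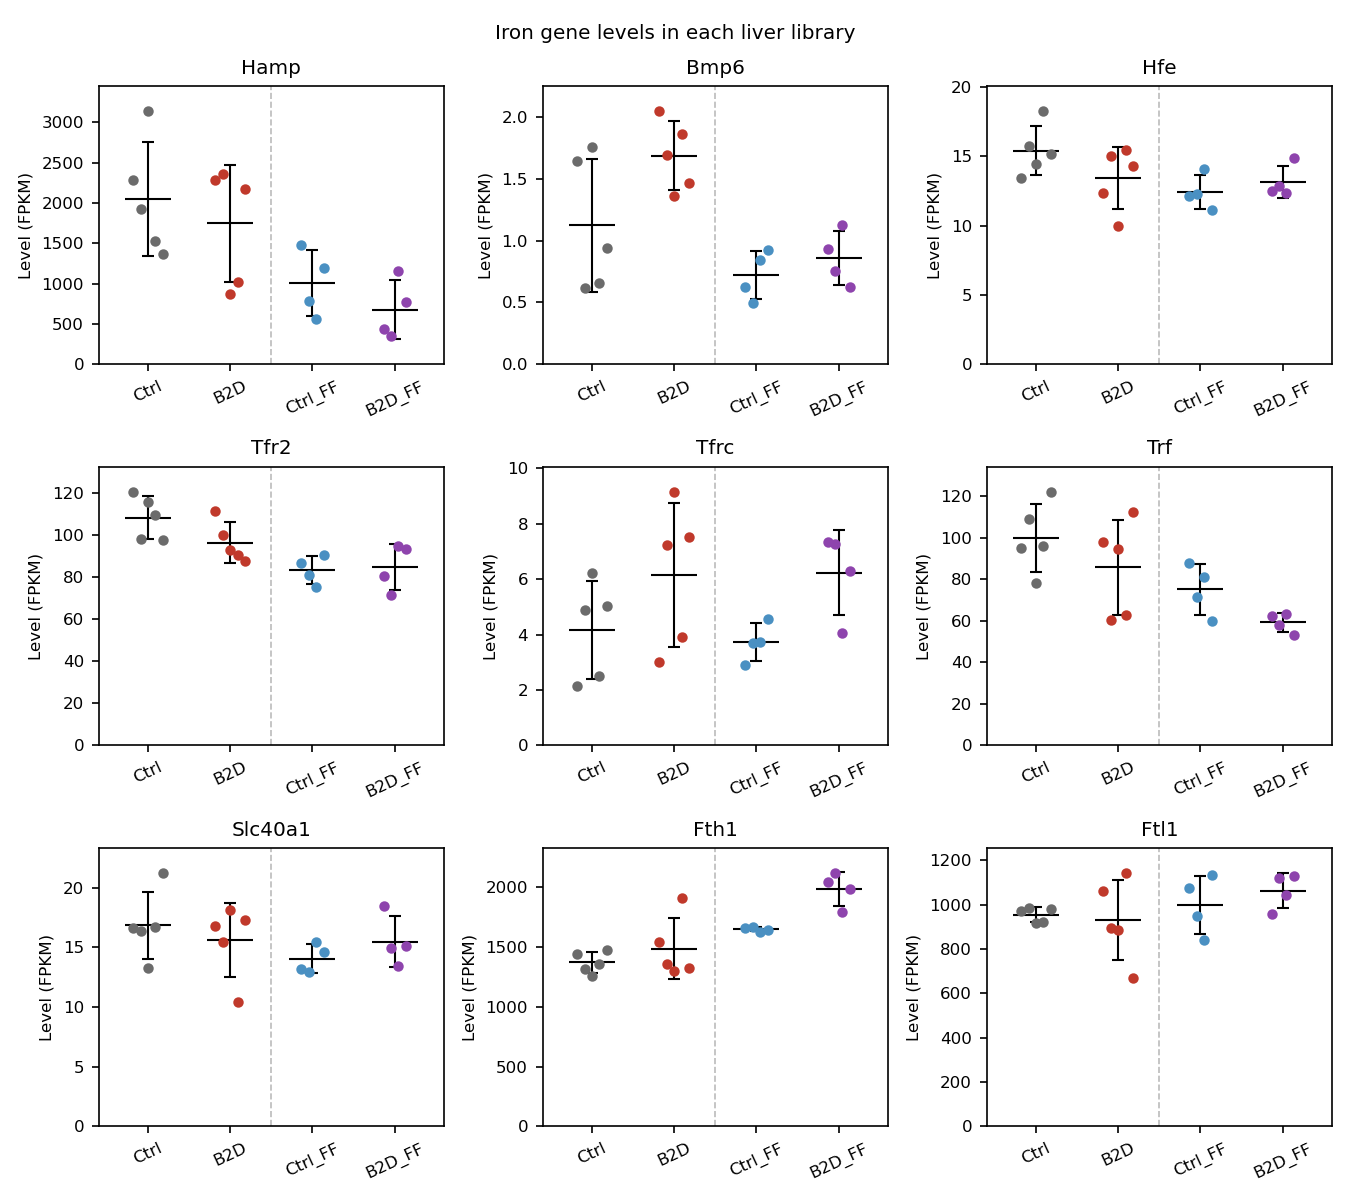
FPKM of the 9 iron genes (vertical axes, linear from 0) in each of the 18 libraries. Points are libraries, horizontal marks and bars are the mean and SD of a group, and the dashed line divides the 2 separately normalised tables. All 4 B2D_FF points for Fth1 (1792 to 2119 FPKM) are above the Ctrl_FF points, and the groups overlap for every other gene.

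None of the 9 genes passed limma's adjusted threshold of 0.05 for B2D against Ctrl, where 2.7% of the 11574 genes tested did. At an unadjusted p under 0.05 there was 1 of 9 (Bmp6), against 18.4% of all genes tested, and estimates were below 0 for 6 and above 0 for 3. No gene of the 9 had groups that did not overlap, against 4.98% overall. For B2D_FF against Ctrl_FF limma again called 0 of 9, against 4.45% of 11878 genes. Here 3 of 9 were under an unadjusted p of 0.05 (Tfrc, Trf and Fth1), against 21.2% of all genes, and estimates were below 0 for 2 and above 0 for 7. Groups did not overlap for 1 of 9 (Fth1), against 14.3%. limma's voom on the recovered reads called 0 of 9 without fenofibrate and 1 of 9 (Tfrc) with it. The median log2 fold change of the 9 genes was -0.11 without and 0.10 with fenofibrate, beside -0.0013 and 0.01 over all genes tested.

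The diet effect with fenofibrate minus the effect without it was tested as an interaction term in 1 limma fit of all libraries. It called 0 of 9 genes, against 0.145% of 11031, and 0 of 9 were under an unadjusted p of 0.05, against 11.9%. voom called 0 of 9 as well. The intervals of these differences were wide for Hamp (-1.50 to 0.81 on the log2 scale) and Tfrc (-0.68 to 0.96), and narrower for Tfr2 (-0.13 to 0.50) and Fth1 (-0.17 to 0.49).

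**Figure D2:**
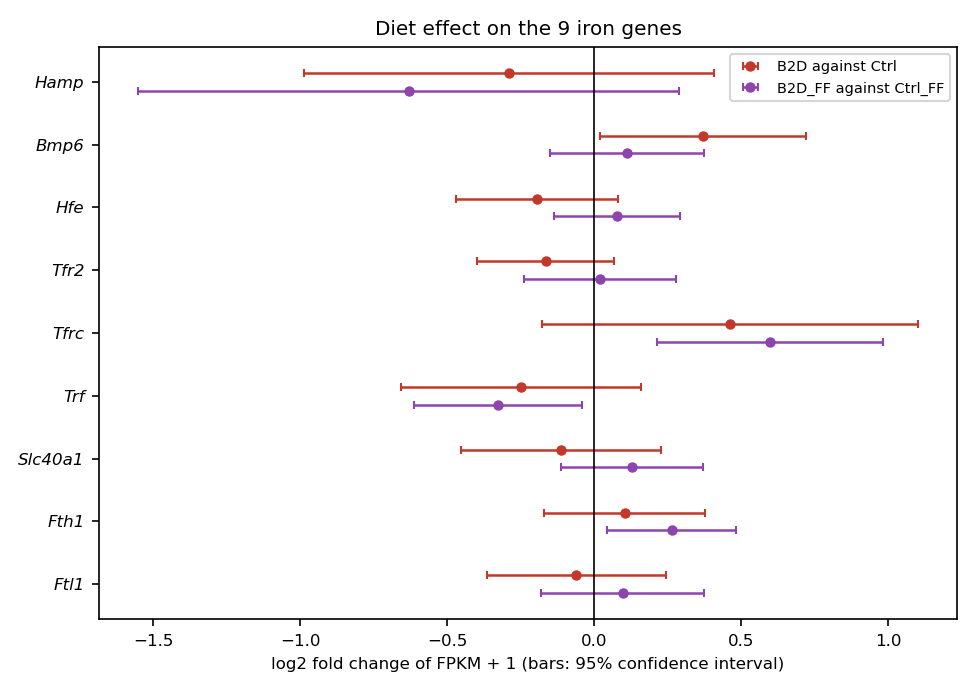
log2 fold change of FPKM + 1 (horizontal axis) for each of the 9 genes, B2D against Ctrl in red and B2D_FF against Ctrl_FF in purple, with 95% confidence intervals from limma. The intervals, unadjusted for the number of genes, exclude 0 for Bmp6 without fenofibrate and for Tfrc, Trf and Fth1 with it.

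Hamp, the hepcidin gene (chr7:30942368-30944032, minus strand, GRCm38), was measured at 2286, 1926, 3138, 1529 and 1366 FPKM in the 5 Ctrl libraries. The B2D libraries held 2287, 2364, 878, 1023 and 2180 FPKM. Group means were 2049 ± 706 and 1746 ± 731 (SD, n = 5). Of the B2D libraries 3 were above the Ctrl mean and 2 were below every Ctrl library, so the groups overlapped widely. The log2 fold change was -0.29 (SE 0.32, limma adjusted p = 0.666). With fenofibrate Hamp was 1479, 780, 565 and 1189 FPKM in Ctrl_FF and 438, 348, 1152 and 768 in B2D_FF. The 2 lowest values were from the deficient diet, but 1 B2D_FF library, at 1152 FPKM, was above 2 of the controls. Its log2 fold change was -0.63 (95% interval -1.55 to 0.29, limma adjusted p = 0.415), an interval that includes 0. The strand used in counting is not given in the sources used here. The 1 listed gene that overlaps Hamp on the other strand, Gm44662, was at 0 in all libraries.

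Bmp6, the ligand whose level in endothelial cells follows liver iron (chr13:38345107-38500302, plus strand), was the lowest of the 9 genes, resting on 32 to 147 reads a library. The Ctrl libraries held 1.64, 0.619, 1.76, 0.659 and 0.944 FPKM. The B2D libraries held 2.05, 1.70, 1.36, 1.86 and 1.47 FPKM. Ctrl split into 3 libraries under 1 FPKM and 2 inside the B2D range, while all 5 B2D libraries were above those 3. Means were 1.12 ± 0.541 and 1.69 ± 0.281 FPKM (SD, n = 5), a log2 fold change of 0.37 (SE 0.16) with unadjusted p = 0.0399 and limma adjusted p = 0.245. With fenofibrate the values were 0.625, 0.499, 0.841 and 0.923 FPKM in Ctrl_FF and 0.933, 0.756, 1.13 and 0.626 in B2D_FF, which overlapped (log2 fold change 0.11, limma adjusted p = 0.631). Txndc5, a protein disulfide isomerase gene, overlaps the coordinates of Bmp6 on the other strand and was at 19.9 to 37.0 FPKM. Whether its reads entered the count for Bmp6 was not tested.

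Sinusoidal endothelial cells are the main known source of BMP6 in liver, so their markers are given beside it. None of the 9 markers passed the adjusted threshold without fenofibrate, and 1 was higher at an unadjusted p under 0.05 (Kdr, a VEGF receptor gene). Their summed level was 43.8 to 63.2 FPKM in Ctrl and 48.5 to 58.4 in B2D, and 39.3 to 48.7 in Ctrl_FF and 34.0 to 51.8 in B2D_FF, and none of the markers was at 0. Stab2, a scavenger receptor of these cells, was 4.65, 2.91, 4.64, 2.97 and 3.25 FPKM in Ctrl and 4.01, 6.04, 3.06, 6.08 and 4.77 in B2D (log2 fold change 0.29, limma adjusted p = 0.384). The 3 Ctrl libraries lowest in Stab2 were the 3 lowest in Bmp6, and the B2D library lowest in Stab2 was the lowest in Bmp6. Other libraries did not match in this way. In B2D, replicates 2 and 4 were highest in Stab2 and replicate 1 in Bmp6. In B2D_FF, replicate 2 was lowest in Stab2 (2.49 FPKM) and replicate 4 in Bmp6 (0.626 FPKM). As a share of the summed markers Bmp6 came to 2.60, 1.42, 3.12, 1.44 and 1.75% in Ctrl and 3.64, 3.11, 2.80, 3.19 and 2.54% in B2D, and the ranges still overlapped. The part of these cells in the level of Bmp6 was not tested. With fenofibrate 1 marker rose, Lyve1, a hyaluronan receptor (log2 fold change 0.77, limma adjusted p = 0.0294), and 8 of 9 estimates were below 0. Of all genes tested 4.45% were called in that comparison. In whole-liver RNA, fewer cells of a type and less RNA per cell cannot be told apart.

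Of the sensors, Hfe (chr13:23702034-23710854, minus strand), which encodes an MHC class I-like protein that binds transferrin receptors, was 13.5, 15.8, 14.4, 18.2 and 15.2 FPKM in Ctrl and 12.4, 14.99, 10.001, 15.4 and 14.3 in B2D. With fenofibrate it was 12.1, 12.3, 14.1 and 11.1 in Ctrl_FF and 12.5, 12.8, 12.4 and 14.9 in B2D_FF. Groups overlapped in both experiments, although 2 B2D libraries were below every Ctrl library, and the log2 fold changes were -0.19 (SE 0.13, limma adjusted p = 0.431) and 0.08 (SE 0.09, adjusted p = 0.685). Tfr2 (chr5:137569840-137587481, plus strand), the hepatocyte sensor of iron-loaded transferrin, was 120, 97.9, 116, 109 and 97.6 FPKM in Ctrl and 111, 99.7, 92.7, 90.6 and 87.4 in B2D. Its levels with fenofibrate were 86.7, 80.7, 75.2 and 90.4 in Ctrl_FF and 80.2, 71.4, 94.6 and 93.1 in B2D_FF. Although 3 B2D libraries were below all 5 Ctrl libraries, the ranges met, and the log2 fold change was -0.17 (95% interval -0.40 to 0.07, limma adjusted p = 0.427). The estimate with fenofibrate, 0.02, lay near 0 (interval -0.24 to 0.28, adjusted p = 0.941), and its sign turned under other scalings.

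Tfrc, the transferrin receptor that takes up iron (chr16:32608920-32632794, plus strand), was 2.13, 4.87, 6.23, 2.52 and 5.04 FPKM in the Ctrl libraries. In B2D it was 2.99, 7.25, 9.14, 3.91 and 7.53 FPKM. Each group held 2 low libraries and 3 high ones, so the ranges crossed even though the mean was 4.16 ± 1.76 in Ctrl and 6.16 ± 2.60 in B2D (SD, n = 5). Its log2 fold change of 0.46 had an SE of 0.29 (limma adjusted p = 0.421). With fenofibrate the levels were 2.89, 3.70, 3.74 and 4.58 FPKM in Ctrl_FF and 7.33, 7.27, 4.07 and 6.29 in B2D_FF. Of the B2D_FF libraries 3 were above every Ctrl_FF library, and replicate 3 lay inside the control range. Means were 3.73 ± 0.691 and 6.24 ± 1.52 FPKM (SD, n = 4), 1.51 times on the FPKM + 1 scale. The log2 fold change of 0.60 (SE 0.17) missed the threshold (unadjusted p = 0.00630, limma adjusted p = 0.0816), the smallest adjusted p of the 9 genes in any comparison. It passed without B2D_FF replicate 3 (0.76, adjusted p = 0.0177) and with voom on the recovered reads (0.72, adjusted p = 0.0463).

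Red cell precursors also express Tfrc at high level, so erythroid transcripts are given beside it. Of 8 erythroid markers 7 were listed in the tables and 5 were abundant enough to test. Slc4a1, which encodes the anion exchanger of the red cell membrane, lay between 0 and 0.129 FPKM in every library. The summed level was 184 to 250 FPKM in Ctrl, 91.3 to 391.6 in B2D, 437 to 630 in Ctrl_FF and 284 to 690 in B2D_FF, with overlapping ranges in both experiments. Hbb-bs, a beta globin, was 244, 350, 360 and 267 FPKM in Ctrl_FF and 425, 180, 225 and 253 in B2D_FF (log2 fold change -0.23, limma adjusted p = 0.649). Without fenofibrate it was 130, 137, 132, 96.6 and 112 in Ctrl and 47.5, 130, 227, 61.7 and 103 in B2D (log2 fold change -0.30, adjusted p = 0.676). All 5 erythroid markers tested had estimates below 0 in both experiments, while those of Tfrc were above 0. Of these markers only Alas2, described below, passed the threshold. In B2D, replicate 1 was lowest in Tfrc and in the summed level (91.3 FPKM), and replicate 3 was highest in both (391.6 FPKM). In Ctrl, replicate 1 was lowest in Tfrc and highest in the summed level (250 FPKM). The part of red cell precursors in the level of Tfrc was not tested.

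Trf, which encodes transferrin, the plasma iron carrier made by hepatocytes (chr9:103204001-103230444, minus strand), was 94.9, 109, 78.1, 96.0 and 122 FPKM in Ctrl and 98.2, 60.6, 94.8, 62.8 and 112 in B2D. B2D replicates 2 and 4 were the lowest of these 10 libraries and the other 3 were inside the Ctrl range (log2 fold change -0.25, SE 0.19, limma adjusted p = 0.506). With fenofibrate it was 88.0, 71.6, 81.2 and 59.8 FPKM in Ctrl_FF and 62.3, 58.1, 63.1 and 53.4 in B2D_FF. The B2D_FF libraries were close together and 3 of the 4 controls were above them, while Ctrl_FF replicate 4 was within their range. The log2 fold change was -0.33 (95% interval -0.61 to -0.04, unadjusted p = 0.0294, limma adjusted p = 0.181). The 8 hepatocyte markers had estimates on both sides of 0 in the same comparison (3 below and 5 above, median 0.01), among them Alb (-0.35, limma adjusted p = 0.114) and Apoa1 (0.30, adjusted p = 0.575), which also encode plasma proteins. Of the other plasma protein genes among them, Ttr was 1684 to 1861 FPKM in Ctrl_FF and 1234 to 1493 in B2D_FF. Serpina1c was 129 to 179 FPKM in Ctrl_FF and 49.5 to 82.2 in B2D_FF, while the diets overlapped for Fgb. Whether these levels share a cause with that of Trf was not tested.

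Slc40a1, the gene for ferroportin (chr1:45908068-45926523, minus strand), was 16.6, 16.4, 13.3, 16.7 and 21.2 FPKM in Ctrl and 16.8, 15.4, 18.2, 10.4 and 17.3 in B2D. In Ctrl_FF it was 13.2, 12.9, 15.5 and 14.6 and in B2D_FF 18.5, 14.95, 13.4 and 15.1 FPKM. The groups overlapped in both experiments, with 1 low B2D library and 1 high B2D_FF library. log2 fold changes were -0.11 (95% interval -0.45 to 0.23, limma adjusted p = 0.740) and 0.13 (-0.11 to 0.37, adjusted p = 0.533). Kupffer cells, the liver macrophages that recycle red cell iron, also express ferroportin, and 2 of their 10 markers fell in B2D. At an unadjusted p under 0.05 there were 4 lower and 1 higher, the scavenger receptor Marco (0.95, limma adjusted p = 0.199). Of all genes tested 2.7% were called and 18.4% were under an unadjusted p of 0.05. Clec4f, a lectin particular to these cells in mouse liver, was 27.2, 32.7, 25.5, 30.3 and 27.8 FPKM in Ctrl and 17.0, 23.0, 20.9, 19.0 and 22.3 in B2D (log2 fold change -0.47, limma adjusted p = 0.0412). Every B2D library was below every Ctrl library for Clec4f, and the other marker that fell was C1qa, a complement subunit (-0.50, adjusted p = 0.0275). With fenofibrate 0 of 10 passed limma's threshold and 1 was under an unadjusted p of 0.05 (Clec4f, -0.62, adjusted p = 0.108). Estimates were below 0 for 9 of 10 Kupffer markers without and 8 of 10 with fenofibrate. Summed Kupffer markers were 139 to 167 FPKM in Ctrl, 108 to 146 in B2D, 112 to 190 in Ctrl_FF and 75.5 to 194 in B2D_FF, and no marker was at 0. As a share of that sum Slc40a1 was 10.8, 9.82, 9.56, 10.9 and 12.7% in Ctrl and 14.97, 11.99, 13.8, 9.60 and 11.8% in B2D. The part of macrophages in the level of Slc40a1 was not tested.

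The storage genes encode the heavy chain of ferritin, which oxidises iron (Fth1, chr19:9982703-9985092, plus strand), and its light chain, which helps form the mineral core (Ftl1, chr7:45457944-45459884, minus strand). Fth1 was 1447, 1319, 1259, 1358 and 1478 FPKM in Ctrl and 1540, 1358, 1303, 1913 and 1327 in B2D. B2D replicate 4 was the highest of these 10 libraries and the rest interleaved (log2 fold change 0.10, SE 0.13, limma adjusted p = 0.697). With fenofibrate Fth1 was 1660, 1671, 1627 and 1646 FPKM in Ctrl_FF and 2046, 2119, 1792 and 1991 in B2D_FF. The controls lay within a narrow band and all 4 B2D_FF libraries were above it, with means of 1651 ± 18.8 and 1987 ± 140 FPKM (SD, n = 4). The log2 fold change was 0.26 (95% interval 0.04 to 0.48), with unadjusted p = 0.0234 and limma adjusted p = 0.159, above the threshold.

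Ftl1 was 973, 985, 916, 921 and 979 FPKM in Ctrl and 1062, 894, 884, 1142 and 671 in B2D. Ctrl was tight, and B2D spread to both sides of it. With fenofibrate it was 1075, 947, 840 and 1134 FPKM in Ctrl_FF and 958, 1119, 1046 and 1131 in B2D_FF, and the groups interleaved. The log2 fold changes were -0.06 (SE 0.14, limma adjusted p = 0.850) and 0.10 (SE 0.12, adjusted p = 0.700). Ferritin genes have near-identical copies, so reads could be split among them and both levels are uncertain to that extent. Ftl1-ps1 was listed at 3.66 to 33.0 FPKM, and the related Ftl1-ps2, Ftl2-ps, Fth-ps2 and Fthl17a never exceeded 0.962 FPKM.

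Ratios within a library do not depend on how libraries were scaled, and are given as a description. The level of Tfrc was 0.174, 0.222, 0.230 and 0.278% of that of Fth1 in Ctrl_FF and 0.358, 0.343, 0.227 and 0.316% in B2D_FF. In Ctrl it was 0.147, 0.370, 0.495, 0.185 and 0.341% and in B2D 0.194, 0.533, 0.701, 0.204 and 0.567%. In both experiments the ranges overlapped, by 1 library of B2D_FF with fenofibrate. The ratio of Fth1 to Ftl1 was 1.49, 1.34, 1.37, 1.47 and 1.51 in Ctrl and 1.45, 1.52, 1.47, 1.68 and 1.98 in B2D. With fenofibrate it was 1.54, 1.76, 1.94 and 1.45 in Ctrl_FF and 2.14, 1.89, 1.71 and 1.76 in B2D_FF. With the listed gene lengths, 866 bases for Fth1 and 1340 for Ftl1, FPKM was higher for Fth1 in all 18 libraries. That order rests on the lengths used. The transcripts searched for IREs are 929 and 968 bases long, and Ctrl replicate 2 held 19855 reads on Fth1 and 22937 on Ftl1. Which chain had more mRNA was therefore not settled.

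**Figure D3:**
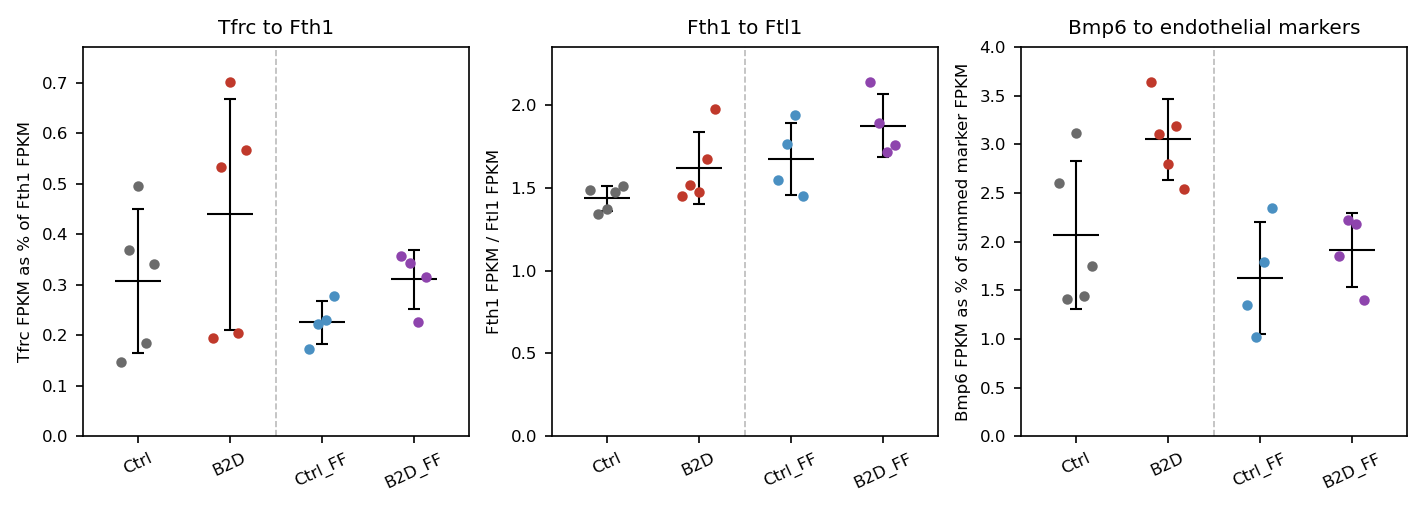
Ratios of FPKM within each library (vertical axes, linear from 0): Tfrc as a percent of Fth1, Fth1 over Ftl1, and Bmp6 as a percent of the summed sinusoidal endothelial markers. Points are libraries, with the mean and SD of each group, and the dashed line divides the tables. Groups on the control and the deficient diet overlap in all 3 panels of both experiments.

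The hepcidin paralog Hamp2 (chr7:30922372-30924681, minus strand), which encodes a peptide related to hepcidin, passed the threshold without fenofibrate. Hamp2 was 9.93, 9.77, 28.4, 7.61 and 6.73 FPKM in Ctrl and 47.0, 34.5, 20.1, 26.0 and 52.1 in B2D. Of the 5 B2D libraries 3 were above every Ctrl library, and Ctrl replicate 3 was above the lowest 2 of them. The log2 fold change was 1.56 (SE 0.35, 2.95 times, limma adjusted p = 0.0384). That call was lost without any 1 of 8 libraries and held without Ctrl replicate 3 (1.89, adjusted p = 0.00513) or B2D replicate 3 (1.74, adjusted p = 0.0305). It was also lost with upper-quartile scaling and with no filter, and over all alternatives the adjusted p was 0.00513 to 0.136. With fenofibrate Hamp2 was 13.4, 12.6, 6.91 and 17.5 FPKM in Ctrl_FF and 5.84, 10.96, 13.2 and 13.2 in B2D_FF, which overlapped (log2 fold change -0.20, adjusted p = 0.744). In the limma fit of all libraries the difference between the diet effects was -1.76 (SE 0.51, unadjusted p = 0.00296), which did not pass (limma adjusted p = 0.173).

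As a percent of Hamp in the same library, a ratio chosen after its values were seen, Hamp2 was 0.434, 0.507, 0.904, 0.498 and 0.492% in Ctrl and 2.05, 1.46, 2.29, 2.54 and 2.39% in B2D. Every B2D library was above every Ctrl library in this ratio. With fenofibrate it was 0.905, 1.62, 1.22 and 1.47% in Ctrl_FF and 1.33, 3.15, 1.14 and 1.72% in B2D_FF, and the ranges overlapped.

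**Figure D4:**
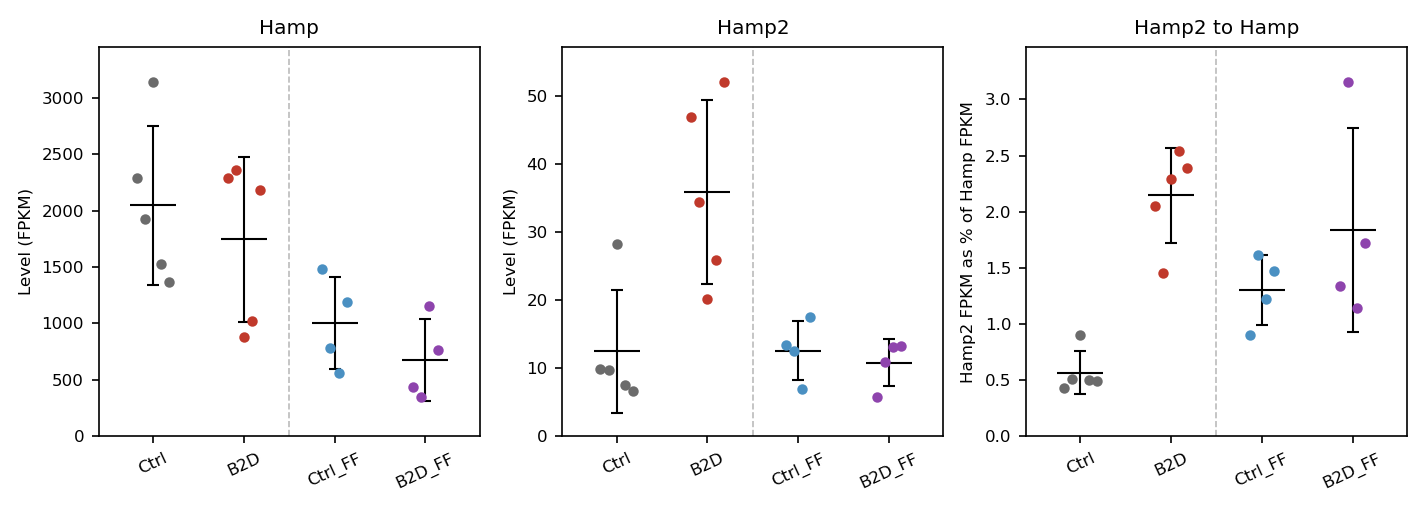
FPKM of Hamp and of Hamp2, and Hamp2 as a percent of Hamp in the same library (vertical axes, linear from 0), with the mean and SD of each group. The 5 B2D libraries lie at 1.46 to 2.54% and the 5 Ctrl libraries at 0.434 to 0.904%, while the Hamp panels overlap in both experiments.

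The BMP pathway upstream of Hamp was read from 13 genes for ligands, receptors and SMADs. None passed limma's threshold or voom's in B2D against Ctrl, where 2 were under an unadjusted p of 0.05. These were Neo1, which encodes neogenin, a partner of hemojuvelin (2.15, 1.505, 1.69, 1.79 and 2.13 FPKM in Ctrl and 2.27, 2.49, 3.28, 2.36 and 2.67 in B2D, log2 fold change 0.34, adjusted p = 0.109), and the activin receptor gene Acvr2a (0.28, adjusted p = 0.200). For Neo1 the groups did not overlap, as for 4.98% of all genes tested. With fenofibrate 0 of 13 passed with limma or voom and 3 were under an unadjusted p of 0.05, all lower. Tmprss6, a protease gene that restrains hepcidin, was 110, 107, 97.1 and 103 FPKM in Ctrl_FF and 80.8, 84.6, 87.4 and 93.9 in B2D_FF (-0.26, limma adjusted p = 0.118), and Gdf2, which encodes BMP9, had -0.36 (adjusted p = 0.217). Groups did not overlap for either gene, as for 14.3% of all genes tested.

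None of the 7 target genes of the same pathway passed either. Id1, the usual readout of BMP signalling in liver, was 10.2, 6.35, 10.4, 11.3 and 8.86 FPKM in Ctrl and 15.4, 9.19, 11.4, 10.2 and 10.7 in B2D (log2 fold change 0.25, limma adjusted p = 0.427). It was 9.14, 15.1, 7.59 and 14.6 in Ctrl_FF and 9.11, 5.76, 12.2 and 17.4 in B2D_FF (-0.10, adjusted p = 0.890), with wide overlap in both experiments. Smad7, an inhibitory SMAD, was 2.95, 1.67, 4.05, 2.33 and 1.78 in Ctrl and 3.53, 2.94, 2.18, 2.63 and 2.41 in B2D (0.10, adjusted p = 0.785), and 2.14, 2.31, 1.30 and 1.75 in Ctrl_FF and 0.727, 0.652, 2.06 and 1.18 in B2D_FF (-0.45, adjusted p = 0.236). B2D_FF replicates 1, 2 and 4 were the lowest of that experiment. Of the other targets, Bambi, a decoy receptor, had a log2 fold change of -0.25 without fenofibrate (adjusted p = 0.228), and Smad6 and Id2 had -0.41 and -0.35 with it (adjusted p = 0.123 and 0.137). At an unadjusted p of 0.05 there were 1 of 7 targets without and 2 of 6 tested with fenofibrate. In the difference between the diet effects all 6 tested had estimates below 0 (median -0.40, beside 0.02 over all genes tested), limma called 0 and 1 was under an unadjusted p of 0.05. This direction was not particular to them. Estimates were below 0 for 10 of 10 acute phase genes (median -0.33), 8 of 9 endothelial markers (-0.24) and 11 of the 13 upstream genes (-0.19). For heme iron recycling 8 of 11 were above 0 (median 0.12). Hamp per unit of Id1 was 135 to 303 in Ctrl and 77.0 to 257 in B2D, and 51.6 to 162 in Ctrl_FF and 44.1 to 94.4 in B2D_FF, with overlap in both.

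Inputs from inflammation and stress were 10 genes, of which 9 were tested and limma called 0 in either experiment. Fgl1, a secreted liver protein, was under an unadjusted p of 0.05 in both (log2 fold change 0.53 and 0.80, adjusted p = 0.171 and 0.171). Gdf15, a stress cytokine, was 2.20, 3.15, 2.11 and 7.36 FPKM in Ctrl_FF and 5.52, 33.0, 7.44 and 13.0 in B2D_FF (1.56, adjusted p = 0.113). Erfe, the erythroid hormone that lowers hepcidin, was at 0 in 16 libraries and at 0.0183 and 0.0204 FPKM in the others. Acute phase genes share the STAT3 route with Hamp, and 10 were followed. In B2D against Ctrl 1 of 10 rose, Apcs, which encodes serum amyloid P (0.63, limma adjusted p = 0.0397), where 2.7% of all genes tested were called. With fenofibrate 3 of 10 fell, all serum amyloid A genes, where 4.45% of all genes tested were called. Saa1 was 14.5, 3.90, 6.62 and 7.83 FPKM in Ctrl_FF and 1.66, 1.61, 0.995 and 3.68 in B2D_FF (-1.58, adjusted p = 0.0387), with no overlap. Without the drug it was 7.85, 7.99, 5.89, 5.90 and 4.25 in Ctrl and 3.99, 4.09, 5.72, 2.87 and 32.8 in B2D (0.03, adjusted p = 0.978), where B2D replicate 5 stood apart. The median over the 10 genes was 0.08 without and -0.12 with fenofibrate.

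Iron import held the other calls, besides Hamp2. Of 13 genes 10 were tested in B2D against Ctrl, where 1 rose, and 9 with fenofibrate, where 2 fell. Among all genes tested 2.7% and 4.45% were called. At an unadjusted p under 0.05 there were 3 lower and 2 higher without fenofibrate, against 18.4% of all genes tested. With fenofibrate there were 3 lower and 1 higher, against 21.2%. The gene that rose was Lcn2, which encodes a siderophore-binding lipocalin. Lcn2 was 1.41, 0.768, 1.41, 0.692 and 1.46 FPKM in Ctrl and 2.88, 2.81, 1.85, 1.98 and 5.05 in B2D, with no overlap (log2 fold change 0.83, SE 0.20, limma adjusted p = 0.0477). That call was near the threshold and was lost without any 1 of 9 libraries, holding without B2D replicate 3 (0.93, adjusted p = 0.0364). It was also lost with no filter, upper-quartile scaling, quantile normalization and 1 joint fit, and over all alternatives the adjusted p was 0.0282 to 0.155. Lcn2 rested on 35 to 80 reads a library in Ctrl and 85 to 252 in B2D. Neutrophils also make this protein, and their 5 markers summed to 0.867 to 2.46 FPKM in Ctrl and 2.03 to 6.53 in B2D. Of these, 3 were tested, 0 passed and 2 were higher at an unadjusted p under 0.05, while Ngp, a granule gene, was at 0 in 14 of 18 libraries. The part of neutrophils in the level of Lcn2 was not tested. With fenofibrate Lcn2 was 8.13, 1.97, 3.66 and 7.83 in Ctrl_FF and 10.7, 6.88, 7.24 and 6.01 in B2D_FF (0.56, adjusted p = 0.382).

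Scara5, a scavenger receptor that takes up ferritin, fell with the deficient diet under fenofibrate. It was 2.24, 1.36, 2.17 and 1.90 FPKM in Ctrl_FF and 0.626, 0.339, 0.690 and 0.400 in B2D_FF (log2 fold change -0.94, SE 0.12, limma adjusted p = 0.00527). All 4 B2D_FF libraries were below all 4 controls, and the call held in every alternative that tested it. Scara5 rested on few reads, 136 to 230 a library in Ctrl_FF, 42 to 87 in B2D_FF and 13 to 99 in B2D. Without the drug it was 1.22, 1.35, 1.78, 0.662 and 1.35 in Ctrl and 0.882, 0.202, 0.814, 0.110 and 0.250 in B2D (-0.66, adjusted p = 0.0775), where 2 B2D libraries were above the lowest Ctrl library.

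Slc25a37, the mitochondrial iron importer mitoferrin 1, also fell under fenofibrate, from 7.90, 8.18, 7.84 and 9.11 FPKM in Ctrl_FF to 4.35, 5.66, 5.85 and 5.70 in B2D_FF (log2 fold change -0.54, SE 0.10, limma adjusted p = 0.0182). The groups were fully apart. The call was lost without Ctrl_FF replicate 1 or 2 (adjusted p = 0.0575 and 0.0651). Without the drug the values were 5.21, 4.77, 5.61, 5.60 and 6.00 in Ctrl and 4.04, 3.52, 4.93, 4.18 and 4.94 in B2D (-0.28, adjusted p = 0.168). For Scara5 and Slc25a37 the difference between the diet effects did not pass (adjusted p = 0.666 and 0.456).

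Alas2, the erythroid enzyme that starts heme synthesis, was listed among the erythroid markers and was chosen after its values were seen. It was 19.98, 21.5, 15.1, 25.6 and 22.2 FPKM in Ctrl and 6.13, 6.58, 15.2, 6.00 and 5.95 in B2D (log2 fold change -1.36, SE 0.23, limma adjusted p = 0.0114). It also fell with fenofibrate, from 13.7, 14.7, 15.4 and 16.6 FPKM in Ctrl_FF to 5.72, 4.11, 5.65 and 5.56 in B2D_FF (-1.37, adjusted p = 0.000918). In B2D 4 of 5 libraries were below all controls, and B2D replicate 3, which held the most Hbb-bs of the group, was not. B2D_FF replicate 1 held the most Hbb-bs of its group (425 FPKM), but its Alas2 was close to that of replicates 3 and 4. The summed erythroid markers overlapped between diets in both experiments. The Alas2 transcript carried 1 match to the IRE pattern, as Fth1, Ftl1 and Slc40a1 did. Whether the element or the number of red cells had a part in its level was not tested.

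**Figure D5:**
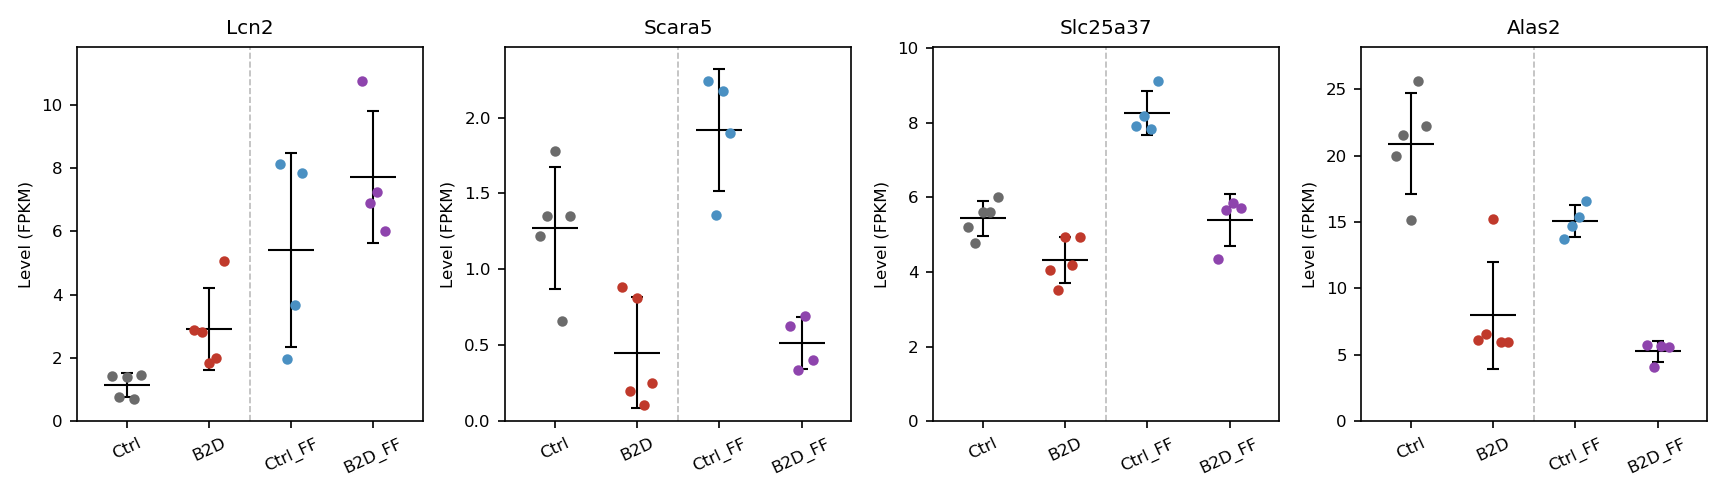
FPKM of Lcn2, Scara5, Slc25a37 and Alas2 (vertical axes, linear from 0) in each library, with the mean and SD of each group. The dashed line divides the tables. The diet groups do not overlap for Lcn2 without fenofibrate and for Scara5, Slc25a37 and Alas2 with it.

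The other iron genes gave no further calls. Of 12 genes for plasma oxidases and heme iron recycling 11 were tested, and limma called 0 in both experiments, with 1 and 3 under an unadjusted p of 0.05. Hmox1, which frees iron from heme, was 9.89, 8.25, 7.21, 8.60 and 8.17 FPKM in Ctrl and 13.6, 10.8, 12.5, 8.21 and 12.5 in B2D (0.40, adjusted p = 0.137) and had 0.52 with fenofibrate (adjusted p = 0.203). Lrp1, a receptor for heme-hemopexin, and Hmox2 had -0.48 and 0.32 with fenofibrate (adjusted p = 0.0916 and 0.158). Of 10 genes for iron chaperones, ferritin turnover and iron regulatory proteins 9 were tested and limma called 0 in both, with 0 and 2 under an unadjusted p of 0.05. These were Pcbp2, which delivers iron to ferritin (0.32, adjusted p = 0.0800), and Hif1a (0.23, adjusted p = 0.144). Over all 66 iron genes outside the 9, limma called 2 of 60 tested without fenofibrate, both higher, and 2 of 58 with it, both lower. Among all genes tested limma called 2.7% and 4.45%, so these counts were near the shares over all genes. voom called the same pair and Scara5 (lower) without fenofibrate, and the same pair as limma with it. The median log2 fold change was 0.03 and -0.03. For the difference between diet effects it called 0 of 58, with 5 under an unadjusted p of 0.05, and voom called 0. Besides Hamp2 these were Neo1 (-0.45, limma adjusted p = 0.202), Eng (-0.47, 0.405), Id2 (-0.51, 0.411) and Creb3l3, a hepatocyte transcription factor gene (0.41, 0.371).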

How the data were processed

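RNA-seq of 18 mouse livers was read from 2 tables of FPKM values deposited by the authors, 1 per experiment. Per the labels and methods, the authors used STAR (mm10) for alignment, featureCounts for counting and DESeq2 for testing. The methods say RPKM and the tables FPKM, and tool versions are not given in the sources used here. In each library FPKM times gene length was a whole multiple of its smallest step for 100% of values above 0 (tolerance 0.01 reads, wider for high counts), which gave back the reads. All value columns were matched to samples by mouse number.

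log2(FPKM + 1) was fitted for genes averaging 0.5 FPKM or more with limma 3.58.1 (R 4.3.3, moderated variances with a trend), each table alone, with Benjamini-Hochberg adjustment over all genes and a threshold of 0.05. Tests are two-sided. Fold changes understate those of low genes. The interaction was fitted over all 18 libraries. Alternatives were a pseudocount of 0.1, no filter, a mean FPKM of at least 5, upper-quartile and quantile scaling, array weights, voom on recovered reads, 1 joint fit, and leaving out each library. The model was tested on simulated reads with the same dispersion for every gene. That test cannot show its power for genes as variable between mice as Hamp, Tfrc and Bmp6.

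The members and lists were chosen with earlier results of these data known. Named were all 9 members, Hamp2, Id1, Smad7, Saa1, Clec4f, Stab2 and Hbb-bs, other iron genes past the adjusted threshold, the 2 with the smallest p under 0.05 in each role and diet comparison (not the interaction), and the 3 genes most like each member. Other genes named, such as Alas2 and single markers, were chosen after their values were seen. Hjv is listed as Hfe2, and Ahsp was not matched. Sequences came from RefSeq (GRCm38.p6) and GENCODE vM21, read and aligned with Biopython 1.88 in Python 3.11.15. The values of 1 listed gene are not reported here.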

Additional observations from a re-analysis of the deposited data

Results flagged for a closer look

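Among 52 groups of 4 or 5 libraries (the 9 genes and the 4 other iron genes that passed a threshold), 2 held a library far from the rest by Dixon's 95% criterion, which chance meets in about 1 of 20 groups. Hamp2 was 28.4 FPKM in Ctrl replicate 3, the highest of 5, with a gap of 0.852 of the group's range. Slc25a37 was 4.35 FPKM in B2D_FF replicate 1, the lowest of 4, with a gap of 0.872 of the range. Without the first the log2 fold change of Hamp2 was 1.89, and without the second that of Slc25a37 was -0.46. The causes were not tested.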

How the results depend on the processing

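Over the 9 genes, 511 values under alternatives kept direction and side of the threshold, 2 passed it (Tfrc with fenofibrate) and 13 turned sign. Members called with fenofibrate were 1 with voom, and 0 to 1 when each library was left out; without fenofibrate and for the difference they stayed at 0 in every alternative. Other iron genes called in B2D against Ctrl fell from 2 to 0 with no filter and with upper-quartile scaling, and to 1 (Hamp2) with a mean FPKM of at least 5 and with quantile normalization, 0 to 2 when each library was left out. Lcn2 had too low a level for the stricter filter and was also lost in 1 joint fit. With fenofibrate the range over left-out libraries was 1 to 3. Signs turned for Ftl1 without fenofibrate under quantile normalization (0.081) and for Tfr2 with it under upper-quartile scaling (-0.040) and quantile normalization (-0.028). Leaving out each library gave -0.19 to 0.017 for Slc40a1 and -0.14 to 0.052 for Ftl1 without fenofibrate, -0.034 to 0.10 for Tfr2 and -0.44 to 0.044 for Hamp2 with it, and -0.051 to 0.30 for Tfrc and -0.19 to 0.028 for Trf in the difference. The causes were not tested. No paired analysis was possible because mouse numbers are not shared between groups. With 4 or 5 mice a group, a change of Hamp within its wide interval could not be detected, and Bmp6 and Scara5 rested on few reads.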

Other observations

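The genes that varied most like each of the 9 were found by Pearson's r over the 18 libraries after each table's mean was taken away, among 9937 protein-coding genes. These r values are the highest of many, come from libraries that share diet, depth and scaling, and are given with no p. Hamp was closest to Lrg1 (0.835), Tbkbp1 (0.785) and Apon (0.767). Lrg1 encodes an acute phase glycoprotein. For Bmp6 the closest were Sema3f (0.822), Gcn1l1 (0.815) and Fat1 (0.809). Hfe varied most like Apool (0.932), Selenoh (0.886) and Ubtd2 (0.871), and Tfr2 like Pex6 (0.878), Rab1b (0.833) and Sun2 (0.826). Tfrc was nearest to Trp53inp1 (0.838), Tapt1 (0.827) and Gnl3 (0.825), and Trf to Sdc2 (0.920), Rsl1 (0.882) and Dnajc18 (0.853). Slc40a1 came closest to Terf1 (0.867), Ybx1 (0.751) and Memo1 (0.744). Fth1 followed Maea (0.957), Atp6v1b2 (0.850) and Tmem97 (0.843), and Ftl1 Pmpca (0.866), Alg9 (0.859) and Spsb2 (0.834). Among the 9 themselves the highest r was between Hamp and Tfr2 (0.669) and the lowest between Hamp and Fth1 (-0.531).

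Markers of the remaining liver cell types gave few calls. Of all genes tested limma called 2.7% without and 4.45% with fenofibrate. In B2D against Ctrl limma called 0 of 6 stellate, 0 of 3 neutrophil, 0 of 3 cholangiocyte and 0 of 8 hepatocyte markers tested, with 0, 2, 0 and 3 under an unadjusted p of 0.05. With fenofibrate it called 0 of 6 stellate and 0 of 2 cholangiocyte markers (0 and 1 under an unadjusted p of 0.05). In that comparison 1 of 4 neutrophil markers rose (Retnlg), and of 8 hepatocyte markers Tat rose and Serpina1c fell.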
